A study of Mus musculus with 6 samples.

Results

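Kcnj8, Abcc9 and Kcne4 were followed through single-cell transcriptomes of genetically labelled mural cells from the mouse cerebral cortex. The 3 genes were taken by name, out of 22833 genes in the table of the NG2 line, 21008 in that of the Tbx18 line and 19679 in a joint table of both naïve libraries, and UMIs of all 3 genes were present in each table. Kcnj8 encodes Kir6.1, the pore of the vascular ATP-sensitive potassium (KATP) channel. Abcc9 encodes SUR2, the sulfonylurea receptor that surrounds that pore and gates it. Kcne4 encodes a single-pass accessory subunit of voltage-gated potassium channels and is not an established KATP subunit, so the group is described here as the 2 KATP subunit genes together with Kcne4.

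All mice carried the Ai14-flx reporter, which makes the red protein tdTomato (tdT) once Cre has acted, and either NG2-Cre-ERT2 or Tbx18-CreERT2, and all were 3 to 4 months old. Tamoxifen switched on the reporter in every group, naïve mice included. For each line the naïve group was uninjured, the physical injury group had saline injected into the cortex, and the ischemic injury group had the vasoconstrictor endothelin-1 and the nitric oxide synthase inhibitor L-NAME injected (ET-1/L-NAME). Injury followed tamoxifen by 7 days, and the cells were collected 3 days after injury. Live tdT+/DAPI- cells were sorted from cortices of several mice per group, and 1 droplet library was made for each of the 6 groups. The NG2 promoter is also active in oligodendrocyte precursor cells (OPCs) and the Tbx18 promoter in smooth muscle cells, and both sorts held endothelial cells as well.

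KATP channels open when the ratio of ATP to ADP in a cell falls, and the potassium that leaves through them makes the membrane potential more negative. In mural cells this closes voltage-gated calcium channels and relaxes the vessel. Pericytes lie on capillaries, smooth muscle cells ring arterioles, and in the brain the transcripts of Kcnj8 and Abcc9 are widely used as markers of pericytes.

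Kcnj8 and Abcc9 are neighbours on mouse chromosome 6. On GRCm38, Kcnj8 (ENSMUSG00000030247.9) spans chr6:142564837-142571614 and Abcc9 (ENSMUSG00000030249.15) spans chr6:142587862-142702315, both on the minus strand, with 16247 bases and no annotated gene between them. They differ in length, 6.778 kb against 114.454 kb. Kcne4 (ENSMUSG00000047330.8) lies alone on the plus strand of chromosome 1 at chr1:78816758-78820028 and is 3.271 kb long. In the annotation an antisense transcript overlaps Abcc9 and a long noncoding RNA spans Kcne4, each on the opposite strand, and how the counting handled strand is not given in the sources used here.

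The promoters of all 3 genes are shown because the data below set 2 neighbouring genes with nearly the same pattern over cell types beside a gene with another. Each sequence runs 5′ to 3′ in the direction of the gene, from 250 bases before the start site to 50 bases after it (RefSeq, GRCm38.p6): chr6:142571565-142571864 on the minus strand for Kcnj8, chr6:142702225-142702524 on the minus strand for Abcc9 and chr1:78816661-78816960 on the plus strand for Kcne4. Capitals mark matches on either strand to the motifs searched.
Kcnj8: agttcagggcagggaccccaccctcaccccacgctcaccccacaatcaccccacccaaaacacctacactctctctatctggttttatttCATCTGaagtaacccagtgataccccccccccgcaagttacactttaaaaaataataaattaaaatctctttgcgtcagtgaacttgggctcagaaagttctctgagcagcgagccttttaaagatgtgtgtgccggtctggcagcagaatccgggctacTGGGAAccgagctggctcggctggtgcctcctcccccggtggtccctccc
Abcc9: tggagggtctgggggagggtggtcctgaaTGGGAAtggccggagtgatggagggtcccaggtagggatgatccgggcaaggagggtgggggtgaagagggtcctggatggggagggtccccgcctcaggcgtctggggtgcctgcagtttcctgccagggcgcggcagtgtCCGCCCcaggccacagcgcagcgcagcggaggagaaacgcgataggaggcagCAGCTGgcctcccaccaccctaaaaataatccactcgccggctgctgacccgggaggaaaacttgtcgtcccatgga
Kcne4: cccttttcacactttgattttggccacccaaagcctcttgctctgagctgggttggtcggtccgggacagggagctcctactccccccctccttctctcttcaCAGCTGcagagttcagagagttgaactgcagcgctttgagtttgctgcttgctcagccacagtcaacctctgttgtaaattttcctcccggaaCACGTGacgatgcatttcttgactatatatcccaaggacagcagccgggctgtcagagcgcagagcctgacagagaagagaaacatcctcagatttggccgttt
The motifs were the TATA box (TATAAA), the GC box (GGGCGG), the E-box (CANNTG), a forkhead site (TGTTTAC), an RBPJ site (TGGGAA) and the CArG box of smooth muscle genes. Kcnj8 and Abcc9 each held 1 E-box and 1 RBPJ match, Abcc9 also held 1 GC box, and Kcne4 held 2 E-boxes. The start sites used for Abcc9 and Kcne4 lie inside the gene spans given above, which come from another annotation. The E-box of Abcc9 and both E-boxes of Kcne4 fall before these start sites but within those spans. The E-box letters occur in 72.3% of 32851 mouse promoters of the same length, the RBPJ letters in 25.6% and the GC box in 35.7%. TATAAA (13.6% of all promoters), TGTTTAC (3.65%) and the CArG box (1.63%) were not found in these 3 windows.

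The 6 libraries held 17033 cells and ranged from 686 to 4306 cells, with a median of 2806 to 9232 UMIs (unique molecular identifiers, 1 for each captured transcript) per cell. No pair of libraries shared more than 5 cell barcodes. Levels are given as CPM, the UMIs of a gene scaled to the total UMIs of the same cells, summed over the cells of a cluster in a library. Clusters are those deposited by the authors. Clusters are numbered in the deposited data. Those of the NG2 and Tbx18 tables were given the study's names by number, and those of the joint naïve table were placed here by marker lists. Because each group is 1 library there is no replicate and no test, and each interval is a 95% interval for counting error only. The clusters were formed on the expression of the same cells, so differences between clusters are a description. The Tbx18 naïve library stood apart in clusters 3 (microglia) and 4 (vascular-genic pericytes). In cluster 3 the 76 naïve cells had a microglia list at 337 CPM against 6797 and 5414 CPM in the injured libraries, and the pericyte marker Vtn at 8421 CPM. In cluster 4 the 157 naïve cells had the pericyte list at 15856 CPM and Vtn at 7549 CPM, whereas the injured cells had the list at 134 and 27.6 CPM after physical and ischemic injury. Pericytes of the Tbx18 line were compared in cluster 2 alone, and with cluster 4 added the log2 ratios to naïve were -2.29 and -3.00 for Kcnj8, -2.70 and -3.19 for Abcc9 and -1.61 and -2.52 for Kcne4.

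In naïve NG2-tdT+ cells, both KATP subunit genes were far higher in pericytes than in smooth muscle cells, whereas Kcne4 was found at similar levels in both mural types. In pericytes (clusters 0, 1 and 2 summed, 3243 cells) Kcnj8 stood at 1548 CPM (1526 to 1570), Abcc9 at 1509 CPM (1488 to 1531) and Kcne4 at 152 CPM (145 to 159). In the 503 smooth muscle cells of cluster 3 the Kcnj8 level was 40.4 CPM and the Abcc9 level 25.7 CPM, so that the pericyte level was 38.3-fold (32.8 to 45.2) and 58.7-fold (48.2 to 72.2) higher. The Kcne4 level in smooth muscle cells was 114 CPM (104 to 125), and the pericyte level was 1.33-fold (1.2 to 1.48) higher. At least 2-fold higher in pericytes were thus 2 of the 3 genes, against 19.4% of 12264 genes compared. The study lists Abcc9 among the marker genes behind its cell type names. A high Abcc9 level in clusters named pericytes was therefore partly set by the naming. The marker lists used here hold none of the 3 genes. The median log2 ratio was 5.26 over the 3 genes and 0.37 over all genes. Scaling by TMM factors, which sets the bulk of genes level, lowers every log2 ratio of this comparison by 0.25 and leaves Kcne4 at 0.16. In the naïve Tbx18 library the pericytes of cluster 2 exceeded smooth muscle cells 37.6-fold (22.4 to 69.0) for Kcnj8 and 36.7-fold (24.4 to 58.0) for Abcc9, and the ratio for Kcne4 was 0.831 (0.648 to 1.07). With every cell weighted equally, or with the study's cell filters applied again, both folds fell below these intervals. Without cells holding 2 or more UMIs of other cell type lists, the Kcne4 ratio fell below its interval.

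**Figure D1:**
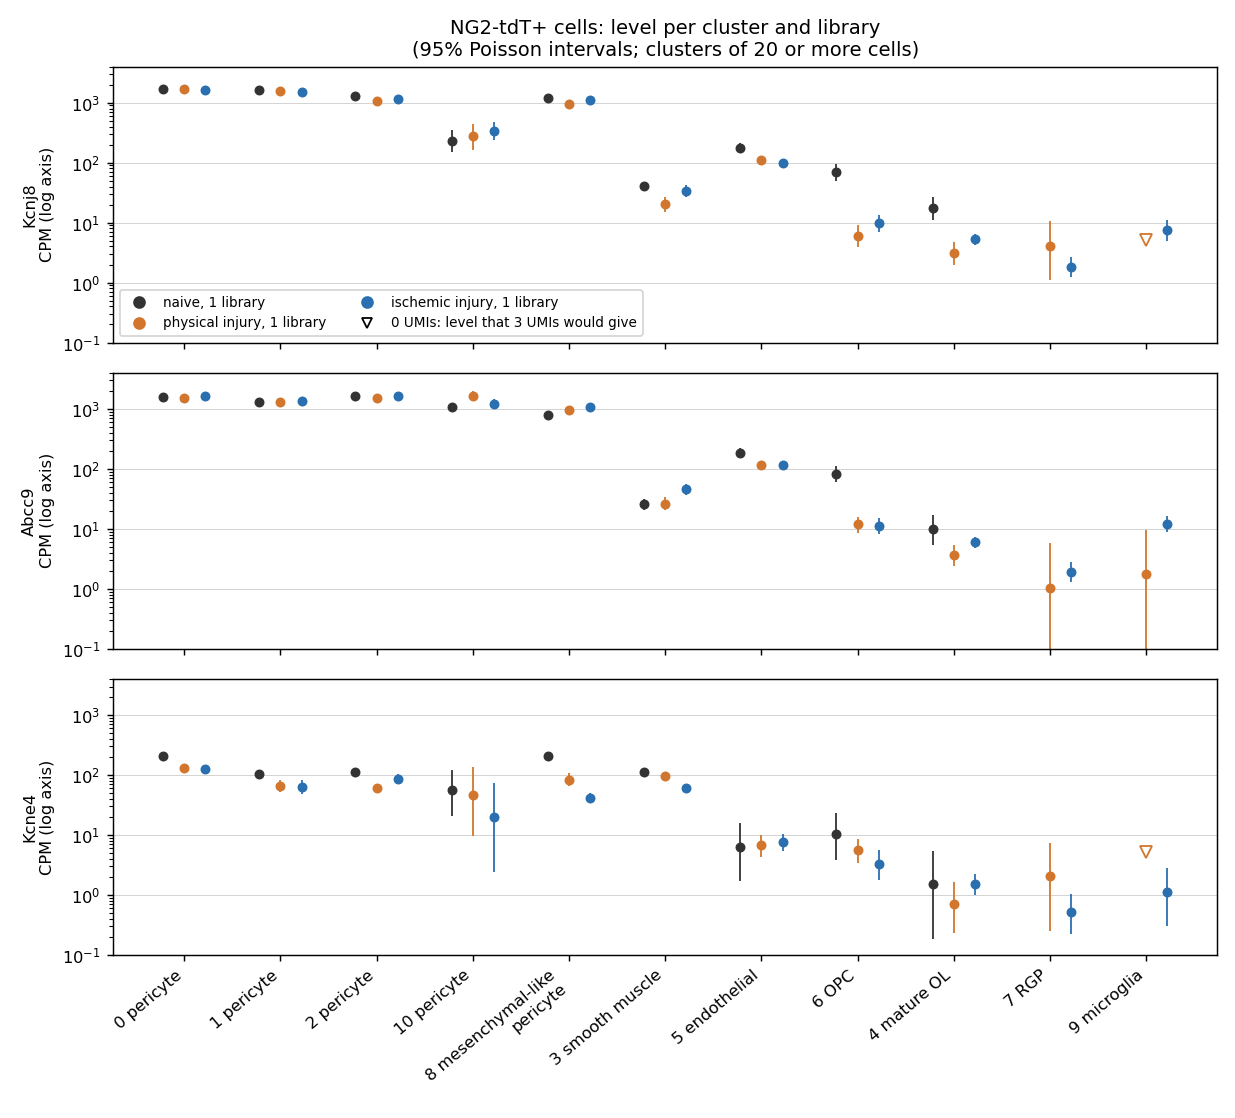
Levels of Kcnj8, Abcc9 and Kcne4 (CPM, log axes) in each cluster of the NG2-tdT+ cells, 1 point per library, with 95% Poisson intervals, and open triangles at the level of 3 UMIs where 0 were counted. Both KATP subunit genes stood between 1086 and 1668 CPM in pericyte clusters 0, 1 and 2 and between 20.2 and 45.4 CPM in smooth muscle cells, whereas Kcne4 in smooth muscle cells (60.6 to 114 CPM) overlapped the range of the pericyte clusters.

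The same order held in each library of the NG2 line. Kcnj8 in pericytes exceeded that in smooth muscle cells 69.4-fold (52.5 to 93.9) after physical injury and 43.1-fold (34.6 to 54.5) after ischemic injury. For Abcc9 the corresponding ratios were 56.1 (43.9 to 72.9) and 34.9 (28.8 to 42.7). For Kcne4 they were 0.912 (0.778 to 1.07) and 1.68 (1.39 to 2.04), so pericytes and smooth muscle cells could not be told apart by Kcne4 after physical injury at this depth. After ischemic injury the log2 ratio of Kcne4, 0.75, changed sign to -0.14 without cells holding 2 or more UMIs of other cell type lists. Only 193 of the 1085 pericytes of that library passed this filter.

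Endothelial cells of the NG2 line (cluster 5) came next after the pericyte clusters for the KATP subunit genes, apart from 17 naïve cells of cluster 7 with 18 UMIs of Kcnj8, at 97.2 to 176 CPM for Kcnj8 and 117 to 187 CPM for Abcc9, and had little Kcne4 (6.27 to 7.59 CPM). The list of 8 pericyte markers, none of which is one of the 3 genes, stood at 3217 to 5327 CPM in the same endothelial cells, against 36457 to 37137 CPM in pericytes. Set against that list, Kcnj8 in endothelial cells made 29.5 to 33.0 UMIs per 1000 pericyte marker UMIs, near the 38.4 to 41.7 of pericytes, whereas in smooth muscle cells it made 3.46 to 5.17. What part of the endothelial counts came from pericyte RNA was not tested. OPCs had 6.08 to 70.3 CPM of Kcnj8, mature oligodendrocytes 3.12 to 17.6 CPM. In endothelial cells, OPCs and mature oligodendrocytes the naïve library had the highest level of both Kcnj8 and Abcc9, and also the highest pericyte list.

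Shares of cells were compared after thinning every cell to 1000 UMIs, which leaves out shallower cells. In naïve NG2-tdT+ pericytes, a UMI of Kcnj8 was found in 72.3% (70.7 to 73.8) of 3208 cells, of Abcc9 in 70.3% (68.7 to 71.9) and of Kcne4 in 11.6% (10.5 to 12.8). Before thinning the shares were 95.5%, 94.4% and 34.6%. Mature oligodendrocytes, which should lack these transcripts, gave 2.02% (0.246 to 7.11), 2.02% (0.246 to 7.11) and 1.01% (0.0256 to 5.50) of 99 naïve cells after thinning. Their median depth before thinning was 13252 UMIs against 3821 in naïve pericytes. In smooth muscle cells the thinned share was 3.64% (2.17 to 5.69) for Kcnj8 and 9.70% (7.24 to 12.7) for Kcne4. The Kcnj8 share lay within the oligodendrocyte interval and the Kcne4 share above it.

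Cells with a UMI of one KATP subunit gene more often had a UMI of the other. At 1000 UMIs, 52.8% (51.0 to 54.5) of naïve NG2-tdT+ pericytes had a UMI of both and 10.2% (9.17 to 11.3) had neither. Kcnj8 was found in 75.1% (73.2 to 76.9) of cells with Abcc9 and in 65.7% (62.6 to 68.7) of cells without it. Kcne4 was found in 12.1% (10.7 to 13.5) of cells with Abcc9 and in 10.5% (8.62 to 12.6) of cells without it, intervals that overlap. A cell without a UMI at this depth is not shown to lack the transcript.

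Among the pericyte clusters of the NG2 line the 2 KATP subunit genes did not keep to one proportion. In naïve cells, cluster 0 (named activated pericytes by the study) had 1665 CPM of Kcnj8 and 1551 CPM of Abcc9. Cluster 1 had nearly the same Kcnj8 level, 1643 CPM, but less Abcc9, 1284 CPM. Cluster 2 had the reverse, with 1305 CPM of Kcnj8 and 1641 CPM of Abcc9. The summed counts gave 0.93 (0.90 to 0.96) Abcc9 UMIs per Kcnj8 UMI in cluster 0, 0.78 (0.75 to 0.81) in cluster 1 and 1.26 (1.21 to 1.30) in cluster 2. The order of the 3 clusters was the same in both injured libraries, where the ratio ran from 0.85 to 1.00 in clusters 0 and 1 and from 1.40 to 1.41 in cluster 2. Malat1, a nuclear noncoding RNA, followed the same order. In clusters 1, 0 and 2 it stood at 44710, 51635 and 64760 CPM in the naïve library. The values were 51046, 67514 and 79779 CPM after physical and 38499, 48021 and 61932 CPM after ischemic injury. What part nuclear RNA or gene length had in these ratios was not tested.

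Cluster 10, a small cluster of 110 cells also named pericytes, stood apart by this ratio. Its Abcc9 level was 1062, 1645 and 1203 CPM in the naïve, physical injury and ischemic injury libraries, near the 1284 to 1656 CPM of clusters 0, 1 and 2. Its Kcnj8 level was only 233, 279 and 341 CPM. The ratio was therefore 4.56 (2.94 to 7.34), 5.89 (3.55 to 10.3) and 3.53 (2.39 to 5.33), above the values of clusters 0, 1, 2 and 8 in each library. These cells were shallow, with a median of 1929 to 2554 UMIs, and rich in Malat1, a nuclear noncoding RNA, at 74409, 95379 and 108517 CPM in the 3 libraries against 53891, 68843 and 50128 CPM in clusters 0, 1 and 2. Their pericyte list, 15630 to 19478 CPM, was below that of clusters 0, 1 and 2. Over all genes, the median log2 ratio of cluster 10 to clusters 0, 1 and 2 was -0.84 for 4535 genes under 20 kb and 1.21 for 1707 genes of 100 kb and over. Kcnj8 belongs to the short class and Abcc9 to the long class, and how far gene length sets their ratio was not tested.

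**Figure D2:**
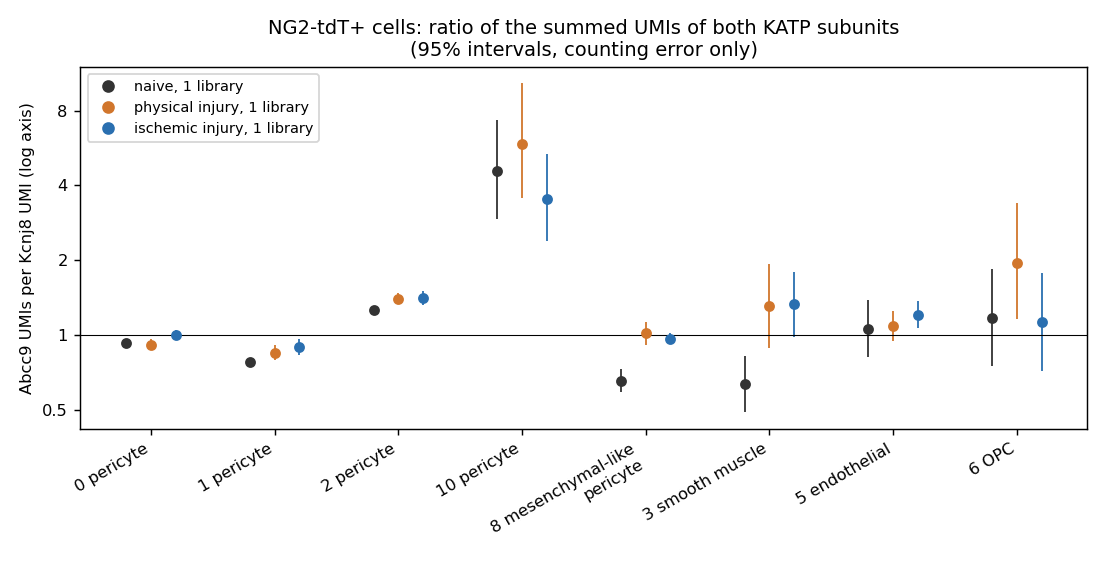
Ratio of summed Abcc9 UMIs to summed Kcnj8 UMIs (log axis) in clusters of the NG2 line, 1 point per library, with exact 95% intervals. Cluster 10 lies between 3.53 and 5.89 in all 3 libraries, cluster 2 between 1.26 and 1.41, and clusters 0 and 1 between 0.78 and 1.00.

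In CPM, the mesenchymal-like pericytes of cluster 8 had less of both KATP subunit genes than clusters 0, 1 and 2 summed. Their Kcnj8 level was 1204 CPM in the naïve, 952 CPM in the physical injury and 1113 CPM in the ischemic injury library. Their Abcc9 level was higher in the injured libraries, 791 CPM against 968 and 1079 CPM, a ratio to naïve of 1.22 (1.10 to 1.37) and 1.36 (1.25 to 1.49). Kcne4 went the other way, from 211 CPM to 84.3 and 41.7 CPM, a ratio of 0.399 (0.294 to 0.537) and 0.198 (0.153 to 0.255). The pericyte list was also lower in cluster 8, at 25171, 25611 and 22569 CPM in the naïve, physical injury and ischemic injury libraries. In clusters 0, 1 and 2 summed it stood at 37137, 36457 and 36638 CPM. Per 1000 pericyte marker UMIs, Kcnj8 made 47.8, 37.2 and 49.3 UMIs in cluster 8, against 41.7, 38.4 and 40.2. Abcc9 made 31.4, 37.8 and 47.8, against 40.6, 40.6 and 43.3. Cluster 8 differed between the libraries in other ways too. Its median depth was 4026, 7733 and 8444 UMIs, and the smooth muscle list stood at 2970, 6671 and 4103 CPM, so the part of cell makeup in these differences was not tested.

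In NG2-tdT+ pericytes, the levels of both KATP subunit genes after either injury lay close to the naïve level, whereas Kcne4 was lower. Kcnj8 was at 1548 CPM in naïve, 1401 CPM in physically injured and 1474 CPM in ischemic cortex. The ratio to naïve was 0.905 (0.881 to 0.930) after physical injury and 0.952 (0.926 to 0.979) after ischemic injury. Abcc9 was at 1509, 1479 and 1586 CPM in the same order, with ratios of 0.980 (0.954 to 1.01) and 1.05 (1.02 to 1.08). The log2 ratio of Abcc9 after ischemic injury, 0.071, changed sign to -0.060 with clusters 8 and 10 added and to -0.14 without cells holding 2 or more UMIs of other cell type lists. That filter kept 1594 of 3243 naïve pericytes, but only 309 of 1106 from saline-injected and 193 of 1085 from ET-1/L-NAME-injected cortex. The share of cells kept was thus unequal between the libraries, and its part in the change of sign was not tested. With 1 library in each group, differences this small cannot be set against the spread between animals, which is not known. Kcne4 was at 152, 87.2 and 102 CPM, which gave ratios of 0.574 (0.517 to 0.635) and 0.670 (0.604 to 0.741).

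The lower Kcne4 level was found in each of the 3 clusters that make up this sum. In cluster 0 it was 209 CPM in the naïve library and 130 and 126 CPM in the injured ones. In cluster 1 it was 104, 66.3 and 63.0 CPM. In cluster 2 it was 113, 60.4 and 86.3 CPM, so the naïve library was highest in all 3. The ratios to naïve lay between 0.537 and 0.767, with no interval reaching 1. None of the 3 genes was at least 2-fold lower, against 1.84% of 12200 genes after physical injury and 1.71% of 12172 genes after ischemic injury. None was at least 2-fold higher (0.836% and 1.74% of genes). The median log2 ratio over the 3 genes was -0.14 and -0.07, and over all genes -0.02 and -0.02. By gene length, the median after physical injury was -0.12 under 20 kb, 0.02 at 20 to 100 kb and 0.18 at 100 kb and over. After ischemic injury these medians were -0.02, -0.03 and -0.01. The part of gene length in the values of the 3 genes was not tested. The pericyte list stood at 37137, 36457 and 36638 CPM in the 3 libraries, and the smooth muscle, endothelial and microglia lists at no more than 2179, 223 and 320 CPM. The microglia list was higher in the injured libraries (320 and 239 CPM) than in the naïve one (97.7 CPM).

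**Figure D3:**
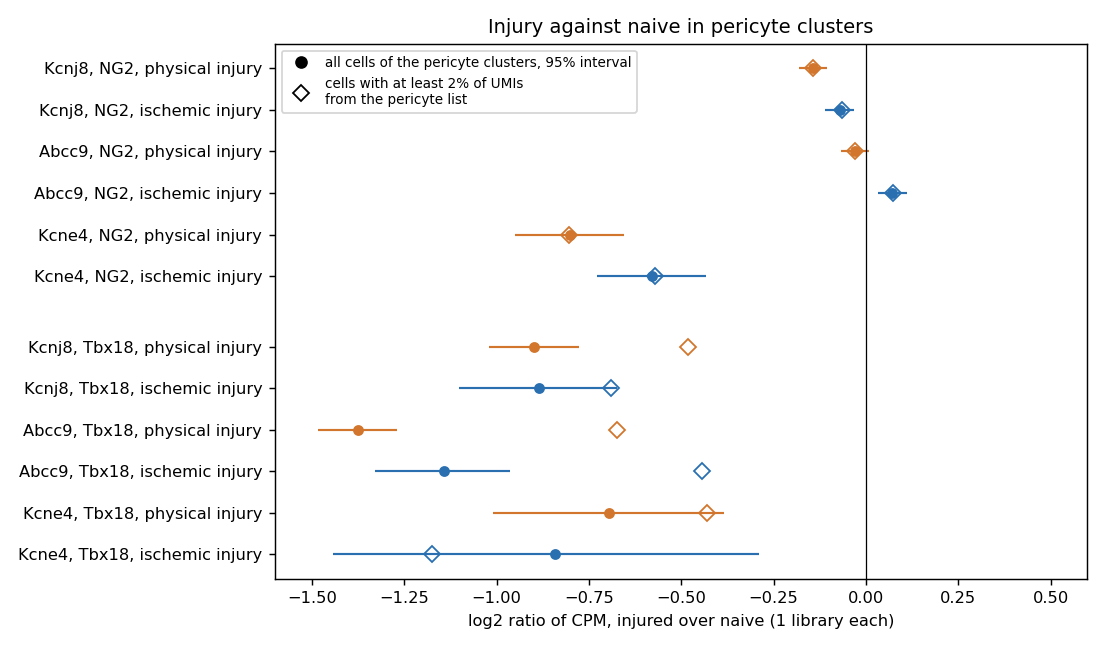
Log2 ratio of the injured to the naïve level of each gene in pericytes of both lines, 1 library per group, with exact 95% intervals (filled points). Open diamonds give the ratio in cells with at least 2% of UMIs from the pericyte list: they lie on the filled points in the NG2 line, and for Kcnj8 and Abcc9 in the Tbx18 line they lie nearer to 0.

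In Tbx18-tdT+ cells the pericyte cluster (cluster 2) had lower levels of all 3 genes in both injured libraries. Kcnj8 stood at 1075 CPM (1023 to 1129) in 226 naïve cells, 577 CPM (539 to 617) in 433 cells after physical injury and 582 CPM (505 to 667) in 86 cells after ischemic injury. Abcc9 stood at 1724 CPM (1657 to 1792), 664 CPM (623 to 707) and 780 CPM (691 to 878). Kcne4 stood at 153 CPM (133 to 174), 94.3 CPM (79.3 to 111) and 85.1 CPM (57.4 to 122). The intervals of the naïve library did not overlap those of the injured libraries for any of the 3 genes, and those of the injured libraries overlapped each other for all 3. The direct ratio of ischemic to physical injury was 1.01 (0.862 to 1.18) for Kcnj8 and 0.903 (0.587 to 1.35) for Kcne4. For Abcc9 it was 1.18 (1.02 to 1.34), an interval that did not reach 1.

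The naïve level of Kcnj8 was 1.86-fold (1.71 to 2.03) that after physical injury and 1.85-fold (1.60 to 2.15) that after ischemic injury. For Abcc9 it was 2.59-fold (2.41 to 2.80) and 2.21-fold (1.95 to 2.51), and for Kcne4 1.62-fold (1.31 to 2.01) and 1.79-fold (1.22 to 2.72). At least 2-fold lower was 1 of the 3 genes, Abcc9, after each injury, against 4.5% of 9253 genes after physical injury and 7.63% of 7814 genes after ischemic injury. None was at least 2-fold higher, against 7.51% and 5.84% of genes. With every cell weighted equally the log2 ratio of Abcc9 after ischemic injury was -0.83 (-0.82 without cells holding 2 or more UMIs of other cell type lists), under 2-fold, and that of Kcnj8 after physical injury was -1.04, past it. The median log2 ratio over the 3 genes was -0.90 and -0.89, against 0.00 and -0.02 over all genes.

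The makeup of this cluster moved with the same comparison. The pericyte list stood at 30368 CPM in naïve and at 19942 and 18966 CPM in the injured libraries. The smooth muscle list was at 1784, 6306 and 3002 CPM, the endothelial list at 170, 1156 and 1567 CPM and the fibroblast list at 314, 858 and 985 CPM. The median depth was 6548, 2540 and 3792 UMIs. In the injured libraries the pericyte list was not the best match of this cluster, so the name rests on the study there. The pericyte list still stood above the smooth muscle, endothelial and fibroblast lists in each of them. Scaled by the pericyte list instead of all UMIs, the log2 ratio to naïve was -0.29 and -0.21 for Kcnj8, -0.77 and -0.46 for Abcc9, and -0.088 and -0.16 for Kcne4 after physical and ischemic injury. The part of cluster makeup in these differences was not tested.

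Restricted to cells with at least 2% of their UMIs from the pericyte list, a limit chosen after these values were seen, the differences of Kcnj8 and Abcc9 were smaller, and all 3 genes kept their direction. This left 206 of 226 naïve cells, 195 of 433 after physical injury and 41 of 86 after ischemic injury. Kcnj8 was then at 1126 CPM (1071 to 1184), 807 CPM (740 to 879) and 698 CPM (563 to 856). Abcc9 was at 1814 CPM (1744 to 1887), 1137 CPM (1056 to 1221) and 1335 CPM (1145 to 1548). Kcne4 was at 154 CPM (134 to 176), 114 CPM (90.0 to 143) and, from 9 UMIs, 68.3 CPM (31.2 to 130). The remaining cells of the cluster had 391 CPM of Kcnj8 in the naïve library, and 394 and 512 CPM after physical and ischemic injury. The Kcnj8 value of these cells was thus not lower after injury. For Abcc9 the values were 525, 291 and 449 CPM, and for Kcne4 they were 134, 78.4 and 95.2 CPM, in the same order. Few naïve cells remained, and no interval was computed for the remaining cells. These differences are therefore not shown to exceed counting error. The same restriction kept 98.0% to 99.4% of NG2-tdT+ pericytes.

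**Figure D4:**
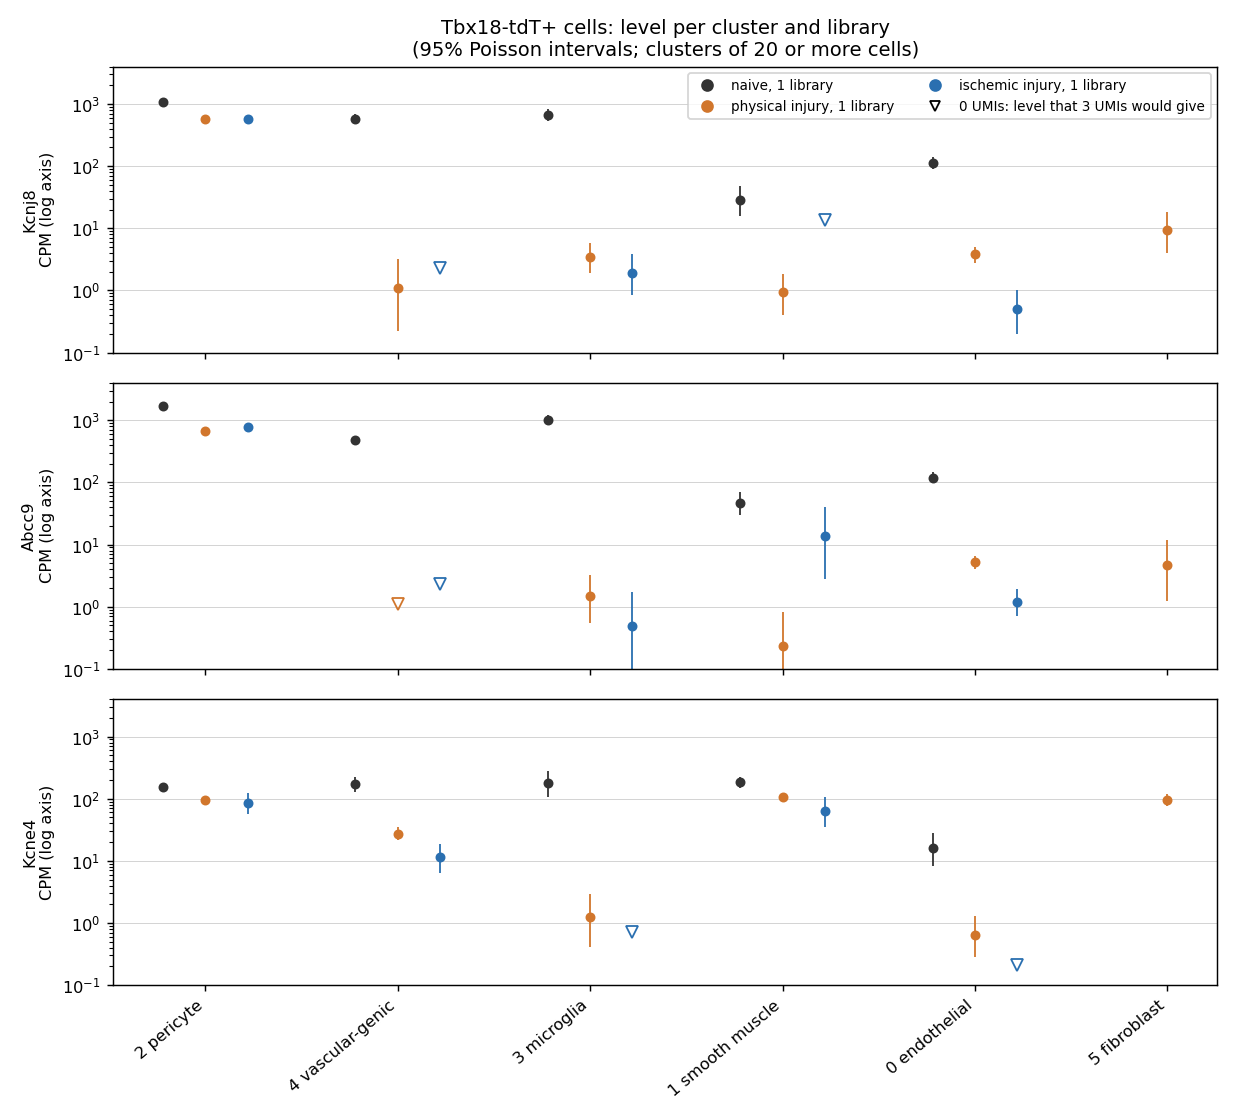
Levels of Kcnj8, Abcc9 and Kcne4 (CPM, log axes) in each cluster of the Tbx18-tdT+ cells, 1 point per library, with 95% Poisson intervals, and open triangles at the level of 3 UMIs where 0 were counted. In clusters 3 and 4, Kcnj8 and Abcc9 are high in the naïve library (477 to 1003 CPM) and at or below 3.51 CPM in the injured ones, and Kcne4 in smooth muscle cells lies at 64.1 to 184 CPM in all 3 libraries.

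Shares of cells were also lower after injury. After thinning to 1000 UMIs, Kcnj8 was found in 60.5% (53.8 to 67.0) of naïve Tbx18-tdT+ pericytes, in 36.9% (31.9 to 42.2) after physical injury and in 34.7% (24.0 to 46.5) after ischemic injury. Before thinning the shares were 92.0%, 51.5% and 68.6%. For Abcc9 the thinned shares were 67.3%, 36.1% and 49.3%. Cells with a UMI of neither KATP subunit gene made up 16.6% (12 to 22.1), 44.9% (39.6 to 50.2) and 36.0% (25.2 to 47.9) of the thinned cells. Thinning kept 223, 352 and 75 cells of the cluster and left out 3, 81 and 11 shallower ones, an unequal loss. Endothelial cells of the same injured libraries, which had 0.50 to 3.82 CPM of Kcnj8, gave thinned shares of 0.288% after physical and 0.203% after ischemic injury, at median depths of 6702 and 8981 UMIs.

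Outside pericytes, the injured Tbx18 libraries had almost no KATP subunit transcripts. Endothelial cells had 3.82 CPM of Kcnj8 after physical injury and 0.50 CPM after ischemic injury, against 113 CPM in the naïve library. The pericyte list in those endothelial cells stood at 359 and 106 CPM against 3821 CPM. In smooth muscle cells (cluster 1), 8 UMIs of Kcnj8 and 2 of Abcc9 were found among 8629183 UMIs of 827 cells after physical injury, or 0.93 and 0.23 CPM. After ischemic injury Kcnj8 had 0 UMIs in 47 cells, which allows up to 13.7 CPM, and Abcc9 had 3 UMIs. The naïve smooth muscle cells had 14 and 23 UMIs, or 28.6 and 46.9 CPM, together with a pericyte list of 8350 CPM against 2783 CPM after physical and 8630 CPM after ischemic injury. Kcne4 remained detectable in smooth muscle cells of every Tbx18 library, at 184, 105 and 64.1 CPM.

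Fibroblasts shared this pattern after physical injury, with 95.7 CPM (76.2 to 119) of Kcne4 and 9.22 CPM of Kcnj8 (8 UMIs) in 116 cells. The vascular-genic cluster 4 of the injured libraries had 27.5 and 11.5 CPM of Kcne4. Its Kcnj8 counts were 3 and 0 UMIs and its Abcc9 counts 0 and 0 UMIs, in 349 and 143 cells, while Vtn stood at 37.7 and 9.98 CPM. A count of 0 allows up to 1.10 and 2.30 CPM there, although the study's name for the cluster is a kind of pericyte.

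In NG2-tdT+ smooth muscle cells the levels after injury rested on few UMIs for the KATP subunit genes. Kcnj8 was at 40.4, 20.2 and 34.2 CPM in naïve, physical and ischemic injury, from 157, 49 and 79 UMIs. The ratio to naïve was 0.5 (0.355 to 0.693) and 0.846 (0.638 to 1.12). Abcc9 was at 25.7, 26.4 and 45.4 CPM, with ratios of 1.03 (0.737 to 1.42) and 1.77 (1.33 to 2.35). The log2 ratio after ischemic injury, 0.82, changed sign to -0.32 without cells holding 2 or more UMIs of the endothelial, oligodendrocyte and microglia lists. Without the same cells the log2 ratio of Abcc9 after physical injury was -3.17 in place of 0.036. For Kcnj8 it was -1.51 after physical injury and -1.40 in place of -0.24 after ischemic injury, the latter being -0.93 with every cell weighted equally. The filter did not use the pericyte list, so pericyte UMIs did not lead to a cell being left out. Its cut of 2 UMIs was the same for cells of any depth. Median depth was 7909, 10167 and 8325 UMIs in the naïve, physical injury and ischemic injury libraries. How many smooth muscle cells or UMIs were kept is not given, so these filtered values may rest on few UMIs. Kcne4 was lower after ischemic injury, 60.6 CPM against 114 CPM in naïve, a ratio of 0.530 (0.435 to 0.643), and less so after physical injury, 95.5 CPM and a ratio of 0.837 (0.711 to 0.983). In the Tbx18 line the ratios of Kcne4 in smooth muscle cells were 0.572 (0.460 to 0.719) after physical injury and 0.349 (0.183 to 0.616) after ischemic injury, the latter from 14 UMIs. The naïve libraries serve as the reference of both injuries in each line.

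The joint table of both naïve libraries allows the 2 lines to be compared in the same clusters. Over the 6 clusters that the markers placed as pericytes (0, 1, 2, 3, 5 and 8), Kcnj8 was lower in the Tbx18 line, at 1036 CPM (986 to 1088) against 1502 CPM (1480 to 1523), a ratio of 0.690 (0.655 to 0.726). Abcc9 was slightly higher, at 1654 CPM (1590 to 1720) against 1485 CPM (1464 to 1507), a ratio of 1.11 (1.07 to 1.16). Scaled to all UMIs, Kcne4 did not differ beyond counting error, at 155 CPM against 147 CPM with a ratio of 1.05 (0.916 to 1.21). None of the 3 genes was at least 2-fold lower (5.85% of 11906 genes) or higher (5.03%). The Tbx18 library supplied 273 of the 3467 cells. Its pericyte list was lower in each of these clusters, for example 31680 against 37558 CPM in cluster 0. Per 1000 pericyte marker UMIs, Kcnj8 made 34.5 UMIs in the Tbx18 and 41.0 in the NG2 library. Abcc9 made 55.2 and 40.6, and Kcne4 5.16 and 4.01. Per 1000 Vtn UMIs, Kcnj8 made 85.1 and 80.9, so it was not lower on that scale. The part of the pericyte list in these differences was not tested.

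The difference in proportion was present in each pericyte cluster. There were 0.99 (0.97 to 1.01) Abcc9 UMIs per Kcnj8 UMI in naïve NG2-tdT+ pericytes and 1.60 (1.5 to 1.70) in naïve Tbx18-tdT+ pericytes. In cluster 0 the ratio was 0.87 and 1.32, in cluster 2 it was 1.29 and 1.90, and in cluster 8 it was 1.33 and 1.96. In these 6 clusters and in cluster 7, which the markers did not name, the Tbx18 value was the higher one each time and the intervals of the 2 lines did not overlap. In cluster 6, also unnamed, the ratio was 1.00 (0.468 to 2.14) in the NG2 and 0.905 (0.750 to 1.09) in the Tbx18 library. Kcnj8 was lower in the Tbx18 library in all 7, with a ratio from 0.508 to 0.915, and its interval reached 1 in cluster 1.

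**Figure D5:**
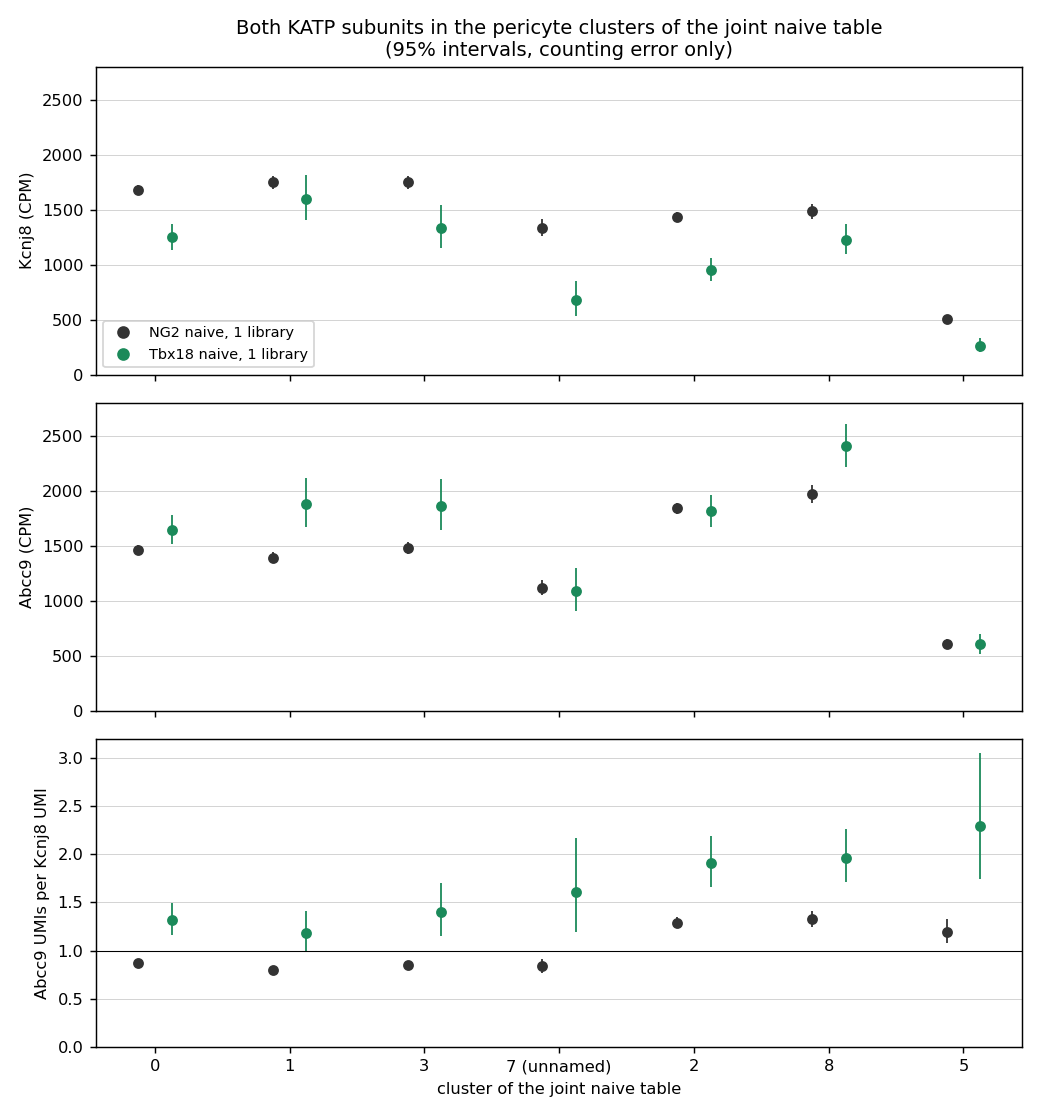
Kcnj8 and Abcc9 levels (CPM) and Abcc9 UMIs per Kcnj8 UMI in clusters of the joint naïve table, 1 library per line, with 95% intervals. In each of the 7 clusters, of which cluster 7 was left unnamed by the markers, the Kcnj8 level is lower and the ratio higher in the Tbx18 library (1.18 to 2.29) than in the NG2 library (0.80 to 1.33).

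Gene length moved with this comparison. The median log2 ratio of Tbx18 to NG2 was -0.28 over 5094 genes under 20 kb, 0.06 over 4931 genes of 20 to 100 kb and 0.43 over 1690 genes of 100 kb and over. The log2 ratio was -0.54 for Kcnj8, in the short class, 0.16 for Abcc9, in the long class, and 0.08 for Kcne4, in the short class. The labels name only Cell Ranger 7.0.0, whereas the study's methods give several versions without assigning them to libraries. The libraries may therefore have been counted with different versions, which treat intronic reads differently. The part of this in the ratio was not tested, and line and library cannot be told apart.

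In cluster 5 of the joint table both KATP subunit genes were lower than in the other pericyte clusters, in both lines. Kcnj8 stood at 507 CPM in the NG2 and 263 CPM in the Tbx18 library, and Abcc9 at 607 and 602 CPM. The pericyte list there was 30148 and 24381 CPM, nearer to the other pericyte clusters, and the smooth muscle list 7341 and 4892 CPM, above theirs. Cluster 5 therefore had 16.8 Kcnj8 UMIs per 1000 pericyte marker UMIs in the NG2 library, against 39.7 to 47.8 in the other 5 clusters.

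The genes whose levels over the 11 clusters of the NG2 line were most like those of the members differed between the KATP subunit genes and Kcne4. The measure was Pearson's r of log2(CPM + 1) over 11 clusters with the libraries summed, among 7825 genes reaching 50 CPM in a cluster. The clusters share libraries and were formed on these genes, so r is a description. Highest for Kcnj8 were Hic1, Pla1a, Nts, Nr1h3 and Tmem45a (r from 0.985 to 0.991). Highest for Abcc9 were Pla1a, Igf2, Tmem45a, Hic1 and Atp13a5 (0.980 to 0.992), of which 3 are shared with Kcnj8. Kcnj8 and Abcc9 themselves had an r of 0.981. Highest for Kcne4 were Aspn, Foxs1, Prelp, Gper1 and C1qtnf2 (0.981 to 0.984), none of them in the other lists, while its r was 0.887 with Kcnj8 and 0.864 with Abcc9. Aspn and Prelp encode small leucine-rich proteins of the extracellular matrix and Foxs1 a forkhead transcription factor. Over the 7 clusters of the Tbx18 line r was 0.992 for Kcnj8 with Abcc9. With Kcne4 it was 0.564 for Kcnj8 and 0.516 for Abcc9. For the genes listed above it ran from 0.684 to 0.916 with Kcnj8 and from 0.829 to 0.979 with Kcne4. With Abcc9 it ran from 0.519, for Igf2, to 0.905, so not every gene of these lists stayed close in the Tbx18 line.

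A list of 34 genes around the channel placed the 3 members among their usual partners, and 32 of them were in the NG2 table. The alternative subunits of KATP channels were close to undetected in mural cells. Kcnj11, which encodes the pore Kir6.2, had 0 UMIs in NG2-tdT+ pericytes, smooth muscle and endothelial cells. Abcc8, which encodes the receptor SUR1, was followed in the Tbx18 table, where it had 2 UMIs in pericytes and 1 in smooth muscle cells, all after physical injury. Among the other KCNE genes, Kcne1 and Kcne3 had 0 UMIs in NG2-tdT+ pericytes and Kcne1l had 1, while Kcne3 reached 44 UMIs (9.28 CPM) in endothelial cells after ischemic injury. These genes were named after their values were seen.

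Between naïve pericytes and smooth muscle cells of the NG2 line, 22 genes of the list had at least 30 UMIs in both sums together, of which 2 were at least 2-fold higher and 5 at least 2-fold lower in pericytes (19.4% and 9.6% of all genes). Those higher were Adora2a, an adenosine receptor that raises cyclic AMP, at 110 against 22.9 CPM, and Ednrb, the endothelin B receptor, at 21.3 against 2.31 CPM. Among those lower were Kcnma1, the pore of the large-conductance calcium-activated potassium channel, at 1.64 against 191 CPM, and Ramp1, the partner of the CGRP receptor, at 1.17 against 173 CPM. Kcna5, a voltage-gated potassium channel, stood at 0.78 against 51.9 CPM. The potassium channel genes Kcnma1 and Kcna5 thus went opposite to Kcnj8 and Abcc9, and Kcnj12, an inward rectifier, stood at 65.6 and 61.5 CPM. The calcium channel gene Cacna1c (386 and 457 CPM) and the endothelin A receptor gene Ednra (295 and 261 CPM) also differed by less than 2-fold. The median log2 ratio of the list was -0.09.

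After injury few genes of the list differed by 2-fold in NG2-tdT+ pericytes. None of 19 with enough UMIs was 2-fold higher or lower after physical injury. After ischemic injury 2 were 2-fold higher, Kcnq5, a voltage-gated potassium channel, at 20.5 against 8.12 CPM, and Kcnj10, an inward rectifier typical of glia, which was named after its value was seen, at 4.10 against 1.41 CPM. Of all genes, 0.836% were 2-fold higher and 1.84% lower after physical injury, and 1.74% and 1.71% after ischemic injury. The oligodendrocyte list stood at 223, 148 and 453 CPM and the oligodendrocyte precursor list at 39.6, 39.4 and 81.3 CPM in naïve, physical and ischemic injury, and their part in the Kcnj10 value was not tested. Adora2a was at 110 CPM in naïve, 101 CPM in physical injury and 78.5 CPM in ischemic injury, and Cacna1c was at 386, 660 and 426 CPM. The part of gene length, given above for physical injury, was not tested for these genes. Over the list the median log2 ratio was -0.10 and -0.02.

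In the pericyte cluster of the Tbx18 line, Kcnma1 was the one gene of the list past 2-fold after physical injury, at 121 against 5.38 CPM in naïve and 0 UMIs after ischemic injury. The smooth muscle list was highest in the same library. After ischemic injury Ednrb was higher, at 167 against 45.7 CPM, and Cacna1h, a T-type calcium channel, lower, at 22.7 against 49.1 CPM from 8 UMIs. Of all genes, 7.51% were at least 2-fold higher and 4.5% lower after physical injury, and 5.84% and 7.63% after ischemic injury. Adora2a was at 102, 61.3 and 79.5 CPM. Over the list the median log2 ratio was -0.25 after physical and -0.36 after ischemic injury. In naïve pericytes 5 genes of the list were at least 2-fold higher in the Tbx18 than in the NG2 line and 1, Ramp1, from 1 UMI, was lower (5.03% and 5.85% of all genes). Those higher were Kcnq5, Kcnma1 (from 8 UMIs), Prkg1, the cGMP-dependent protein kinase, at 3141 against 1504 CPM, Ednrb, and Cacna1d at 95.4 against 45.3 CPM. Long genes as a class stood higher in this comparison, as given above, and the part of gene length in these values was not tested.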

How the data were processed

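Live tdT+ cells of 6 groups (2 Cre lines, 3 conditions, 1 library each) were profiled by droplet single-cell RNA-seq. The authors deposited raw UMI counts per gene and cell in 3 tables (naïve, NG2, Tbx18), with a library name and cluster number for each cell. Cell Ranger 7.0.0 is named in the labels. The methods give several versions without assigning them to libraries, and versions differ in whether intronic reads are counted, which was not tested. The study kept cells within 2 SD of the mean in genes and UMIs. No doublet caller was run here, and leaving out the 5% of cells with the highest totals served as an alternative. All sample columns were used (0 left out).

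UMI counts were summed per cluster and library and scaled to CPM, with exact Poisson intervals, exact conditional binomial intervals for ratios and Clopper-Pearson intervals for shares (95%, counting error only, since 1 library per group allows no test). Cells were thinned to 1000 UMIs for shares. A gene was counted as past the fold at a ratio of at least 2 either way with at least 30 UMIs in both sums together. Beyond the 3 genes, the text names genes of the channel list with at least 20 CPM in naïve pericytes or smooth muscle cells and, for each of the 3, the 5 genes with the highest r over clusters. The genes and lists were chosen with earlier results of these data known. A marker gene and the results that need it are not reported here. The ratio calculation was tested on simulated data. Sums and intervals were computed with scipy 1.17.1 and pandas 2.3.3 under Python 3.11.15 (random draws by numpy 2.4.6), TMM factors with edgeR 4.0.16 in R 4.3.3, and plots with matplotlib 3.10.9.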

Additional observations from a re-analysis of the deposited data

Results flagged for a closer look

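The log2 ratio of Abcc9 after ischemic injury had opposite signs in the 2 lines. In pericytes its log2 ratio to naïve was 0.071 in the NG2 line and -1.14 in the Tbx18 line. In smooth muscle cells it was 0.82 in the NG2 line and -1.77 in the Tbx18 line, the latter from 3 UMIs after injury. The NG2 value in pericytes lay close to the naïve level. In the Tbx18 pericyte cluster the pericyte list stood at 30368 CPM in naïve and 18966 CPM after ischemic injury, and its part was not tested. With 1 library in each group the difference between the lines was not tested, and both NG2 values changed sign under an alternative given below.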

How the results depend on the processing

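Of 468 values recomputed under alternatives, 323 stayed within the counting interval of the main value, 134 moved outside it and 11 changed direction. A change of direction was counted only where the main interval did not include equal levels, so other changes of sign are not among the 11. Counts of channel list genes have no such interval and were taken as unmoved within 1.5-fold. All values here are log2 ratios unless stated, the cause of a change was not tested, and 1 library per group and few UMIs outside pericytes set the limits. No paired analysis was possible because each group is 1 library and no result comes from a test, and no replicate was left out for the same reason. Leaving mitochondrial and ribosomal protein genes out of the totals moved none of 61 values beyond its interval.

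With TMM factors, naïve NG2 pericytes over smooth muscle cells gave 5.01 for Kcnj8 and 0.16 for Kcne4, and Tbx18 over NG2 gave -0.62 for Kcnj8 and 0.066 for Abcc9. With every cell weighted equally, pericytes over smooth muscle cells gave 4.99 (Kcnj8) and 5.54 (Abcc9) in NG2 and 3.64 and 4.10 in Tbx18, and pericytes over endothelial cells gave 3.49 (Kcnj8) in NG2 and 1.47 (Kcnj8), 2.32 (Abcc9) and 2.07 (Kcne4) in Tbx18. The same weighting gave -0.93 (Kcnj8) and 0.22 (Abcc9) for ischemic injury in NG2 smooth muscle cells, -1.04 (Kcnj8, physical) and -0.83 (Abcc9, ischemic) in Tbx18 pericytes, 0.060 (Abcc9) and 0.30 (Kcne4) for Tbx18 over NG2, and, for Abcc9 per Kcnj8 UMI, -0.12 in NG2 pericytes, -0.82 in cluster 8 and 0.58 in Tbx18 pericytes.

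With the study's cell filters applied again, naïve pericytes over smooth muscle cells gave 5.56 (Kcnj8) in NG2 and 4.46 (Kcnj8) and 4.39 (Abcc9) in Tbx18, and over endothelial cells 4.3 (Kcnj8) and 4.02 (Abcc9) in NG2 and 3.52 (Abcc9) in Tbx18. Without the 5% of cells with the highest totals these were 5.57, 4.46, 4.39, 3.98, 3.75 and 3.51, with 2.91 for Kcnj8 over endothelial cells in Tbx18 and -0.57 for Abcc9 after physical injury in NG2 smooth muscle cells.

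Without cells holding 2 or more UMIs of other cell type lists, physical injury in NG2 pericytes gave -0.23 (Kcnj8), -0.11 (Abcc9) and -0.48 (Kcne4), and ischemic injury -0.11, -0.14 (changed direction) and -0.87. Ischemic over physical injury there changed direction to -0.021 (Abcc9) and -0.39 (Kcne4), as did Kcne4 in ischemic pericytes over smooth muscle cells (-0.14). In NG2 smooth muscle cells physical injury gave -1.51 (Kcnj8) and -3.17 (Abcc9), and ischemic injury -1.40 (Kcnj8), -0.32 (Abcc9, changed direction) and -0.38 (Kcne4). The number of smooth muscle cells kept is not given, and these values may rest on few UMIs. In the Tbx18 line Kcne4 gave -1.42 for naïve pericytes over smooth muscle cells and -1.70 for physical injury in smooth muscle cells, and in pericytes physical injury gave -1.26 (Abcc9) and -0.38 (Kcne4) and ischemic injury -0.62 (Kcnj8), -0.82 (Abcc9) and -1.51 (Kcne4). The share of pericytes kept by this filter was unequal between libraries, as given above for the NG2 line. In Tbx18 cluster 2 it kept 81 of 226 naïve cells, 276 of 433 from saline-injected and 47 of 86 from ET-1/L-NAME-injected cortex.

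With NG2 clusters 0, 1, 2, 8 and 10 summed, Kcnj8 gave -0.19 after either injury, and ischemic injury gave -0.060 for Abcc9 (changed direction) and -0.95 for Kcne4. Ischemic over physical injury changed direction to -0.011 (Abcc9) and -0.11 (Kcne4). In cluster 1 alone, physical injury gave -0.088 (Kcnj8), 0.036 (Abcc9) and -0.66 (Kcne4), ischemic injury -0.15 (Kcnj8) and -0.73 (Kcne4), and ischemic over physical injury changed direction to -0.059 (Kcnj8) and -0.073 (Kcne4). With Tbx18 clusters 2 and 4 summed, physical injury gave -2.29 (Kcnj8), -2.70 (Abcc9) and -1.61 (Kcne4), ischemic injury -3.00, -3.19 and -2.52, and ischemic over physical injury -0.49 for Abcc9 (changed direction).

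Further alternatives were chosen after seeing the data. In cells with at least 2% of UMIs from the pericyte list, Tbx18 pericytes gave -0.48 (Kcnj8, physical), -0.67 (Abcc9, physical) and -0.44 (Abcc9, ischemic), and Abcc9 in Tbx18 over NG2 gave 0.22. Scaled by the pericyte list, Tbx18 pericytes gave -0.29 (Kcnj8), -0.77 (Abcc9) and -0.088 (Kcne4) after physical injury and -0.21, -0.46 and -0.16 after ischemic injury, and Tbx18 over NG2 gave -0.25, 0.44 and 0.36.

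Shares of naïve pericytes with a UMI of Kcnj8, Abcc9 and Kcne4, thinned to 2000 UMIs, were 88.7%, 88.6% and 22.8% in NG2 and 73.4%, 88.1% and 23.4% in Tbx18, and without thinning 95.5%, 94.4% and 34.6%, and 92.0%, 95.1% and 44.2%. At 1.5-fold, 3 genes of the channel list passed after physical injury in NG2 pericytes, and 4 after physical and 4 after ischemic injury in Tbx18 pericytes. With no minimum count these were 2, 7 and 8, with 9 after ischemic injury in NG2 pericytes and 12 for Tbx18 over NG2.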
